A study of Homo sapiens with 6 samples.

Results

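The nuclear genes for subunits of respiratory complexes I to V were followed in MDA-MB-231 cells, a line of basal-like breast cancer cells, after knockdown of DICER1 or DROSHA. The subunit genes were taken by name, as the NDUFA, NDUFB, NDUFC, NDUFS and NDUFV genes of complex I, SDHA to SDHD of complex II, the UQCR genes of complex III, the COX4 to COX8 genes of complex IV and the ATP5 genes of complex V, under current and older names. Pseudogenes and assembly factors were left out. The rule found 85 genes among the 20045 named genes on the array, with 36 in complex I, 3 in complex II, 9 in complex III, 19 in complex IV and 18 in complex V, and 113 probes in all.

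Total RNA was hybridised to 6 Illumina bead arrays, 2 from control cells, 2 from cells expressing an shRNA to DICER1 (DICER1-sh) and 2 from cells expressing an shRNA to DROSHA (DROSHA-sh). All cells were grown in MEM with serum and were otherwise untreated. Whether control cells held a hairpin of their own, whether each knockdown line was 1 clone and whether paired arrays stem from separate cultures is not given in the labels. The p-values therefore measure array-to-array spread, which may be only technical. Array positions on the chip run with the group, so position and group cannot be told apart. Levels are normalized log2 intensities, on which a difference of 1 is a 2-fold difference, and a level is set only against other arrays of the same probe.

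The mitochondrial respiratory chain oxidises NADH at complex I and succinate at complex II, passes electrons through ubiquinone, complex III and cytochrome c to oxygen at complex IV, and pumps protons that drive ATP synthesis at complex V. Except for complex II, the complexes combine subunits from the mitochondrial genome with many nuclear ones, which are made in the cytosol and imported. DROSHA cuts miRNA hairpins out of primary transcripts in the nucleus and DICER1 cuts the released hairpins in the cytoplasm, so both enzymes act in the making of most miRNAs.

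The targeted transcripts followed the labels. DICER1 measured 10.55 and 9.36 on the control arrays, 8.41 and 8.66 on the DICER1-sh arrays, and 10.36 and 10.27 on the DROSHA-sh arrays, so both DICER1-sh arrays were lowest. DROSHA measured 11.58 and 10.91 in control, 11.40 and 10.81 in DICER1-sh, and 9.002 and 8.980 in DROSHA-sh. Of the lists of cell markers, 7 of 8 markers of MDA-MB-231 cells were measured. Of 12 markers of luminal breast cells 7 were measured (AGR2, EPCAM, GATA3, KRT8, KRT18, KRT19 and XBP1), and ESR1, PGR, FOXA1, CDH1 and TFF1 were not above background. Of the other lists, 4 of 8 leukocyte, 2 of 8 fibroblast, 1 of 6 melanocytic and 0 of 6 HEK293 markers were measured. Between 42.01% and 44.43% of probes were above background on an array, and control 1 stood apart with the highest raw upper quartile, an intensity of 413.8 against 308.8 to 364.5 on the other arrays.

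Of the 85 subunit genes, 77 were measured, 35 in complex I, 3 in complex II, 9 in complex III, 12 in complex IV and 18 in complex V, and 76 of them were above background on all 6 arrays. NDUFB4, of the distal membrane arm of complex I, was above background on 3 arrays only. Complex IV lost 7 of its 19 genes, and these were the tissue-specific or induced copies. COX4I2, COX6A2, COX6B2, COX7A1, COX7B2, COX8C and COXFA4L2 were not above background on enough arrays, with COX6A2 reaching it on 1 array. Their widely expressed counterparts COX4I1, COX6A1, COX6B1, COX7A2, COX7B, COX8A and COXFA4 were above background on every array. NDUFS6, a zinc-binding accessory subunit of complex I, was the other gene left out, above background on 0 arrays. For 20 of the 77 more than 1 probe was kept, of which the brightest stands for the gene, and all probes had the same sign in 17 of 20 for DICER1-sh, 18 for DROSHA-sh and 18 for the control pair.

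No subunit gene passed an adjusted p of 0.05 in limma in any comparison, and for most of them 1 control array lay below the other 5 arrays. In DICER1-sh, 66 of 77 genes were above the control mean, with a median log2 difference of 0.39 (1.31-fold), against 0.02 over all 17790 tested features. In DROSHA-sh, 67 of 77 were above it, with a median of 0.45 (1.36-fold), against 0.03 over all features. Both comparisons share the control arrays. Control 1 was the lowest of the 6 arrays for 65 of the 77 genes, and it was the lowest for 5888 of the 17790 features.

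Against control 2 alone, the direction of the medians turned. The median difference was -0.13 in DICER1-sh, with 17 of 77 genes above control 2, and -0.06 in DROSHA-sh, with 27 of 77 above it. All 5 complexes had negative medians in both knockdowns on that basis, from -0.04 to -0.26. The medians of single arrays, taken as the level minus the gene's mean over 6 arrays, were -0.72 on control 1, 0.21 on control 2, 0.27 and -0.08 on the DICER1-sh arrays, and 0.18 on both DROSHA-sh arrays. The spread between arrays of a group, pooled over groups, was 0.41 (SD) for these medians, which is about as large as the differences between groups. With 2 arrays against 2, an exact permutation test cannot give a p below 0.333. The arrays measure RNA in bulk, so fewer cells with a transcript and less RNA per cell cannot be told apart.

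**Figure D1:**
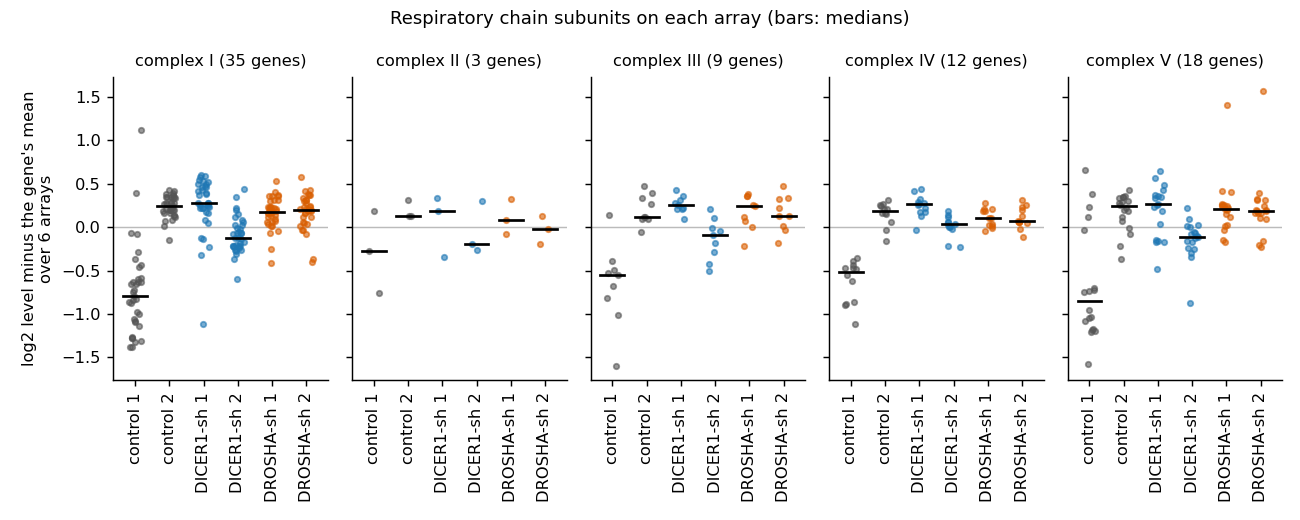
Each point is 1 of the 77 measured subunit genes on 1 of 6 arrays, by complex, as its log2 level minus its mean over the 6 arrays, and black bars are medians. Control 1 has the lowest median in each complex, from -0.27 in complex II to -0.85 in complex V, while control 2 lies among the knockdown arrays.

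**Figure D2:**
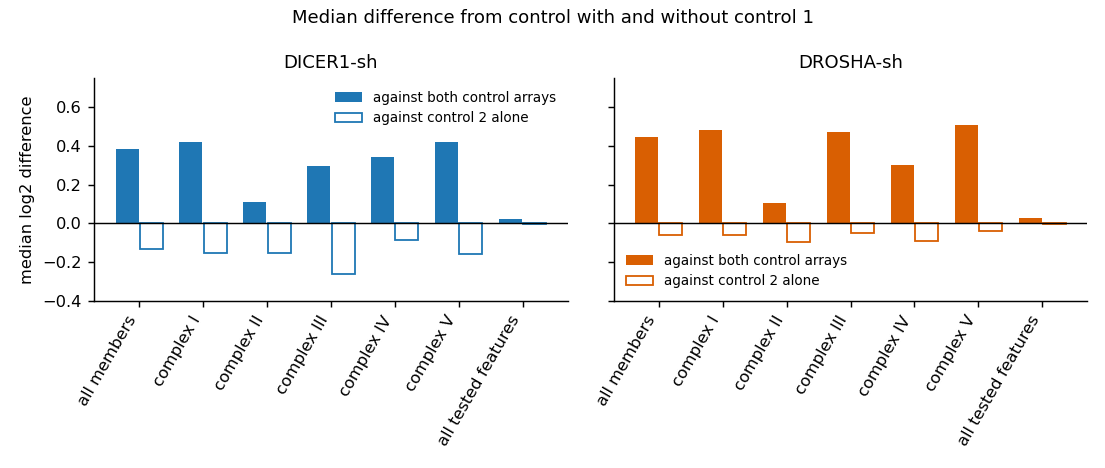
Bars give the median log2 difference of each knockdown from control for all 77 subunit genes, for each complex and for all 17790 tested features, against both control arrays (filled) and against control 2 alone (open). Every filled bar of the subunit genes is above 0 and every open one is below 0.

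The number of genes called in each comparison was near or below that of the whole array. In DICER1-sh against control, 0 of 77 genes passed the adjusted threshold and 0 passed an unadjusted limma p of 0.05, where 0% and 1.93% of all features did. Both DICER1-sh arrays lay above both control arrays for 3 genes, or 3.90%, against 10.9% of all features, and below both for 3 genes, against 9.36%. In DROSHA-sh against control, 0 of 77 passed the adjusted and 1 the unadjusted threshold, where 0% and 2.96% of all features did. The DROSHA-sh arrays lay above both control arrays for 19 genes, or 24.7%, against 19.7% of all features, and below both for 6 genes, against 17.7%. Between the knockdowns, DROSHA-sh against DICER1-sh, 0 of 77 passed the adjusted and 1 the unadjusted threshold, where 0.00562% and 2.41% did, and the median difference was 0.07. In that comparison 9 genes lay apart upwards and 9 downwards, against 16.2% and 17.2% of all features. The single gene past the unadjusted threshold in the last 2 comparisons was ATP5MK of complex V.

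Within the pairs of arrays, the subunit genes differed far more in the control pair than in the knockdown pairs. Control 1 was below control 2 for 70 of 77 genes, with a median log2 difference of -0.999, and at least 2-fold below it for 38, or 49.4%, against 9.96% of all features. In the DICER1-sh pair, array 1 was above array 2 for 65 of 77, with a median of 0.35. It was at least 2-fold above array 2 for 1 gene, NDUFA13, against 840 of the 17790 features. It was at least 2-fold below array 2 for 1 gene, NDUFS1, against 5.94% of all features. In the DROSHA-sh pair the median was -0.01 and 0 genes were at least 2-fold lower, against 0.399% of all features. The medians of all features were -0.04, 0.07 and -0.01 in the 3 pairs.

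All 5 complexes had medians below 0 in the control pair, of different size. In the control pair the median was -1.01 for complex I, -0.40 for complex II, -0.77 for complex III, -0.69 for complex IV and -1.11 for complex V. That of complex II, with 3 genes, was the value of SDHA, whose second kept probe gave 0.04 in this pair. SDHD was at 0.05, so the sign for complex II rests on the choice of SDHA probe. Complex IV had all 12 measured genes below 0 in that pair. In the DICER1-sh pair all 5 medians were above 0, from 0.16 for complex IV to 0.45 for complex III. In the DROSHA-sh pair they lay between -0.03 and 0.11. With 1 pair per group, the differences between complexes were not tested.

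**Figure D3:**
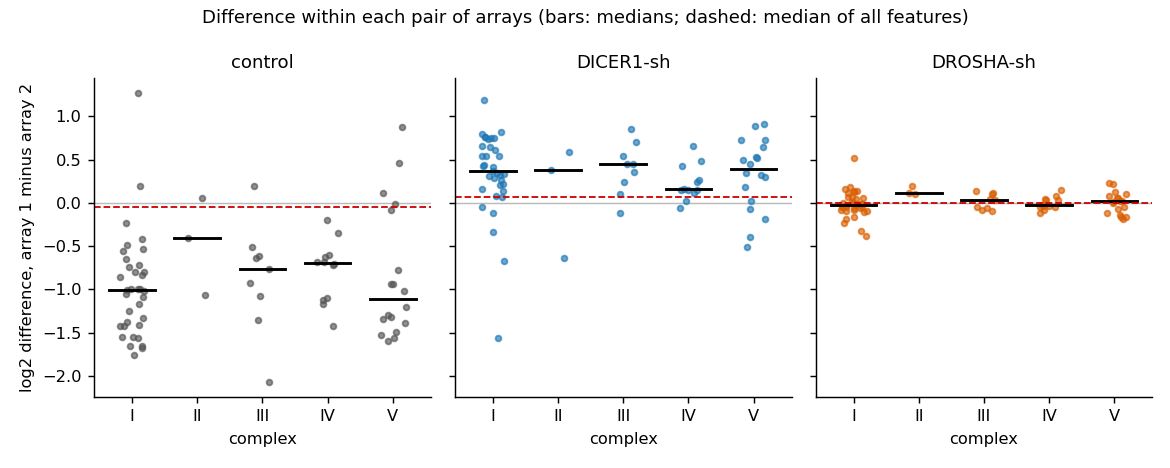
Each point is 1 subunit gene, placed by its log2 difference between array 1 and array 2 of a group, with complexes on the horizontal axis, black bars for medians and a dashed line for the median of all features. The control pair is displaced downwards in complexes I to V, with UQCR10 lowest at -2.08, and the DROSHA-sh pair lies around 0.

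Complex I is the NADH dehydrogenase, with an NADH-binding N module and a quinone-binding Q module in its peripheral arm and a membrane arm that pumps protons. Its 35 measured genes had median log2 differences of 0.42 in DICER1-sh and 0.48 in DROSHA-sh, with 30 and 31 above the control mean. The 20 genes of the membrane arm had medians of 0.49 and 0.56, the 7 of the N module 0.26 and 0.31, and the 7 of the Q module 0.32 and 0.35. The membrane arm was also the most displaced in the control pair, with all 20 genes lower on control 1, 15 of them at least 2-fold, and a median of -1.29. The N and Q modules had medians of -0.79 and -0.83 there.

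NDUFA13, a membrane arm subunit also known as GRIM-19, had the highest difference of complex I in DROSHA-sh. It measured 9.31 and 10.97 in control, 11.29 and 10.10 in DICER1-sh, and 11.22 and 11.27 in DROSHA-sh, a log2 difference of 1.10 ± 0.59 (SE) for DROSHA-sh. Both DROSHA-sh arrays lay above both control arrays, but their mean was only 0.28 above control 2. NDUFA3, another membrane arm subunit, measured 10.999 and 12.55 in control, 12.82 and 12.08 in DICER1-sh, and 12.72 and 12.75 in DROSHA-sh, with a difference of 0.96 ± 0.51 in DROSHA-sh. As with NDUFA13, the low array was control 1 and control 2 stood close to DROSHA-sh.

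NDUFB1 and NDUFB7, accessory subunits of the distal membrane arm, had the highest differences of complex I in DICER1-sh, at 0.75 ± 0.50 and 0.70. NDUFB1 measured 5.99 and 7.42 in control, 7.85 and 7.05 in DICER1-sh, and 7.63 and 7.69 in DROSHA-sh. Its DICER1-sh arrays lay on both sides of control 2. On control 1 the NDUFB1 probe was close to background, with a detection p-value of 0.0156. NDUFB11, of the same arm, had the lowest control pair difference of complex I, at -1.77, from 10.04 on control 1 and 11.80 on control 2. NDUFAB1, the mitochondrial acyl carrier protein bound to both arms, measured 12.27 and 12.91 in control, 13.07 and 13.12 in DICER1-sh, and 12.92 and 13.11 in DROSHA-sh. It was the only gene of complex I with both DICER1-sh arrays above both control arrays, with a difference of 0.51 ± 0.31 and a limma p of 0.142.

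NDUFS4, the accessory subunit that holds the NADH-binding module to the arm, measured 12.20 and 13.22 in control, 13.04 and 12.69 in DICER1-sh, and 13.32 and 13.26 in DROSHA-sh. The DROSHA-sh arrays were the highest, the DICER1-sh arrays fell between the controls, and the differences from control were 0.16 ± 0.38 for DICER1-sh and 0.58 ± 0.38 for DROSHA-sh. Against control 2 alone the DROSHA-sh difference was 0.07. NDUFB4, which was near background, ranged from 5.41 to 6.27, and only 1 of its 3 probes was kept.

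A few genes of both arms were below the control mean in 1 or both knockdowns. In the membrane arm, NDUFC2 had differences of -0.03 in DICER1-sh and -0.35 in DROSHA-sh. NDUFB4 was at -0.16 in DICER1-sh and NDUFB5 at -0.003 in DROSHA-sh. The others were in the peripheral arm. NDUFS1, the largest core iron-sulfur subunit, measured 8.52 and 7.25 in control, 6.28 and 7.84 in DICER1-sh, and 7.51 and 6.997 in DROSHA-sh. It was highest on control 1 and lowest on DICER1-sh 1, where its detection p-value of 0.0104 put it close to background. Its control and DICER1-sh pairs differed by 1.27 and -1.56, and neither knockdown was set apart from control (differences of -0.82 and -0.63). NDUFA5, an accessory subunit of the Q module, measured 8.12 and 7.92 in control, 7.41 and 8.08 in DICER1-sh, and 7.48 and 7.36 in DROSHA-sh. Both DROSHA-sh arrays were below both control arrays, by -0.60 ± 0.31 with a limma p of 0.0957 and an adjusted p of 0.850. NDUFV3, an accessory subunit of the NADH-binding end, measured 7.12 and 7.35 in control, 6.96 and 6.82 in DICER1-sh, and 7.41 and 7.46 in DROSHA-sh. The DICER1-sh arrays lay below both controls and the DROSHA-sh arrays above both. The difference between the knockdowns was 0.54 ± 0.26 with a limma p of 0.0749 and an adjusted p of 1. On the second kept probe of NDUFV3, each knockdown array lay between the controls, at 6.18 and 7.11.

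Complex II, succinate dehydrogenase, links the citric acid cycle to the chain, and it had the smallest median differences. Its 3 measured genes had median differences of 0.11 in both knockdowns. SDHC, a membrane anchor, measured 10.32 and 11.38 in control, 11.25 and 10.87 in DICER1-sh, and 11.39 and 11.20 in DROSHA-sh, with control 1 low. SDHA, the flavoprotein that oxidises succinate, measured 10.95 and 11.35 in control, 11.56 and 10.97 in DICER1-sh, and 11.31 and 11.21 in DROSHA-sh, so that all groups overlapped. Its second kept probe had the other sign in DICER1-sh, -0.25 against 0.11, and in the control pair, 0.04 against -0.40. SDHD, the other membrane anchor, measured 11.98 and 11.92 in control, 11.45 and 12.09 in DICER1-sh, and 11.72 and 11.61 in DROSHA-sh. Control 1 was not low for SDHD, and both DROSHA-sh arrays were below both control arrays, with a difference of -0.29 ± 0.30 that was smaller than its error.

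Complex III, the cytochrome bc1 complex, passes electrons from ubiquinol to cytochrome c. Its 9 measured genes had median differences of 0.29 in DICER1-sh, with 9 above the control mean, and 0.47 in DROSHA-sh, with 8 above it. UQCR10, a small accessory subunit, had the largest drop on control 1 of all 77 genes. It measured 9.17 and 11.24 in control, 11.12 and 10.68 in DICER1-sh, and 11.14 and 11.24 in DROSHA-sh, which gave differences from control of 0.70 and 0.99. On control 2 it was at the level of the DROSHA-sh arrays, and against control 2 alone the DROSHA-sh difference was -0.05. The other 2 kept probes of UQCR10 were also lower on control 1 than on control 2, by -0.97 and -0.41.

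Other subunits of complex III had smaller gaps in the control pair than UQCR10. UQCRB, which contributes to ubiquinone binding, measured 11.25 and 12.60 in control, 12.54 and 12.08 in DICER1-sh, and 12.62 and 12.48 in DROSHA-sh, and 1 of its 3 probes had the other sign in the control pair. CYC1, cytochrome c1, measured 12.20 and 13.28 in control, 13.27 and 12.73 in DICER1-sh, and 13.27 and 13.35 in DROSHA-sh. The hinge protein gene UQCRH and its near-identical copy UQCRHL, whose probes may share transcripts, had differences of 0.47 and 0.13 in DROSHA-sh and are uncertain for that reason. UQCR11, a small accessory subunit, measured 8.64 and 9.25 in control, 9.34 and 8.63 in DICER1-sh, and 9.49 and 9.46 in DROSHA-sh, the DROSHA-sh arrays being the highest. UQCRC1, a core protein, had differences of 0.07 and 0.13. UQCRC2, the other core protein, measured 10.86 and 10.67 in control, 10.82 and 10.94 in DICER1-sh, and 10.50 and 10.54 in DROSHA-sh, the lowest pair, with a difference from control of -0.24 ± 0.26.

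Complex IV, cytochrome c oxidase, transfers electrons to oxygen, and its nuclear subunits surround a core encoded in the mitochondrial genome. All 12 measured genes were above the control mean in both knockdowns, with medians of 0.34 in DICER1-sh and 0.30 in DROSHA-sh, and all 12 were lowest on control 1. COX5A, an accessory subunit on the matrix side, measured 12.83 and 13.51 in control, 13.71 and 13.56 in DICER1-sh, and 13.54 and 13.51 in DROSHA-sh. Both DICER1-sh arrays were above both control arrays, though control 2 was close to them, and the differences were 0.47 ± 0.31 in DICER1-sh and 0.36 ± 0.31 in DROSHA-sh. Against control 2 alone they were 0.13 and 0.02.

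COXFA4, once assigned to complex I as NDUFA4, was the subunit gene with the smallest p in DICER1-sh. It measured 13.55 and 13.74 in control, 14.22 and 14.08 in DICER1-sh, and 13.92 and 13.87 in DROSHA-sh. The DICER1-sh arrays were highest and the 3 groups did not overlap, with a difference in DICER1-sh of 0.51 ± 0.26, a limma p of 0.0904 and an adjusted p of 0.969. COXFA4 was also the gene of complex IV with the smallest gap in the control pair, -0.20. Its copy C15orf48, now COXFA4L3, is not among the 85 genes and measured 10.39 and 11.56 in control, 11.46 and 11.23 in DICER1-sh, and 12.19 and 12.29 in DROSHA-sh. All 3 probes of COXFA4L3 were highest on the DROSHA-sh arrays, with differences from control of 1.27 to 1.67 and, for the brightest, a limma p of 0.0150 and an adjusted p of 0.850.

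Among the common isoforms of complex IV, COX6A1, the liver-type form, had the largest gap in the control pair, -1.43. It measured 11.78 and 13.21 in control, 13.31 and 12.89 in DICER1-sh, and 13.07 and 13.09 in DROSHA-sh. COX6B1, on the intermembrane side, measured 13.02 and 14.15 in control, 14.15 and 13.67 in DICER1-sh, and 14.16 and 14.20 in DROSHA-sh, so that control 2 and DROSHA-sh were nearly level. COX4I1 had differences of 0.24 and 0.14, COX7A2 of 0.20 and 0.22, COX7B of 0.36 and 0.24, COX8A of 0.45 and 0.56, and COX6C, a small membrane subunit, of 0.28 and 0.08 in DICER1-sh and DROSHA-sh. COX7A2L, which takes part in joining complexes III and IV into supercomplexes, measured 11.99 and 12.35 in control, 12.35 and 12.41 in DICER1-sh, and 12.57 and 12.64 in DROSHA-sh. Its DROSHA-sh arrays were above all others, also above control 2, with a difference from control of 0.43.

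Complex V, the ATP synthase, consists of the catalytic F1 head, a ring of c subunits, a peripheral stalk and small membrane subunits. Its 18 measured genes had median differences of 0.42 in DICER1-sh and 0.51 in DROSHA-sh, with 13 and 14 above the control mean. The parts differed in sign. The 5 F1 genes had medians of -0.16 and -0.09, the 4 stalk genes 0.34 and 0.44, the 3 c-ring genes 0.50 and 0.62, and the 5 small membrane subunits 0.42 and 0.60. These small groups were not tested against each other.

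The alpha, beta and gamma subunits of F1 were at or below the control mean, while delta and epsilon were above it. ATP5F1A, the alpha subunit, measured 15.10 and 14.22 in control, 14.28 and 14.36 in DICER1-sh, and 14.40 and 14.27 in DROSHA-sh, with control 1 highest, and its second probe had the same order in the control pair. ATP5F1B, the catalytic beta subunit, measured 15.86 and 15.75 in control, 15.66 and 15.63 in DICER1-sh, and 15.46 and 15.39 in DROSHA-sh. Its 3 groups did not overlap, in the order control, DICER1-sh and DROSHA-sh, with differences of -0.16 and -0.38 from control. ATP5F1C, the gamma subunit of the rotating stalk, measured 13.01 and 13.08 in control, 12.41 and 12.91 in DICER1-sh, and 12.92 and 12.99 in DROSHA-sh, the control arrays being highest. ATP5F1D, the delta subunit, had a control pair difference of -1.56 and differences of 0.56 and 0.74 from control, and ATP5F1E, the epsilon subunit, had 0.48 and 0.66.

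The 3 genes for subunit c, which encode the same mature protein, did not run together. ATP5MC1 had the lowest control pair difference of complex V, -1.60, from 11.43 and 13.03, and ATP5MC2 had -1.50. ATP5MC3 was high on control 1, at 7.95 against 7.48 on control 2, and measured 7.40 and 7.79 in DICER1-sh and 7.42 and 7.36 in DROSHA-sh. Both ATP5MC1 and ATP5MC2 were above the control mean in DROSHA-sh, by 0.62 and 0.73, and ATP5MC3 was below it by -0.32. A second probe of ATP5MC2 gave -0.01 in place of 0.61 in DICER1-sh. ATP5ME, subunit e, had a difference of 0.61 in DICER1-sh, and ATP5IF1, the inhibitor of ATP hydrolysis by the reversed enzyme, measured 10.24 and 11.76 in control, 11.78 and 11.25 in DICER1-sh, and 11.68 and 11.82 in DROSHA-sh.

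ATP5MK, the small membrane subunit also called DAPIT or USMG5, was the gene that stood apart in DROSHA-sh. Its single probe had raw intensities of 180.5 and 219.6 in control, 230.5 and 198.4 in DICER1-sh, and 540.4 and 577.8 in DROSHA-sh. The normalized log2 levels were 5.69 and 6.89, 7.12 and 6.39, and 8.67 and 8.84. Both DROSHA-sh arrays were more than 1 log2 unit above every other array, whereas control and DICER1-sh overlapped. The difference from control was 2.46 ± 0.45 (SE), with a limma p of 0.000774 and an adjusted p of 0.850, and the difference from DICER1-sh was 2.00 ± 0.45, with a limma p of 0.00258 and an adjusted p of 1. In rank of difference from control it was number 5 of 17790 features. The DICER1-sh difference was 0.46 ± 0.45.

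The direction of ATP5MK in DROSHA-sh did not depend on control 1. Without that array the DROSHA-sh difference was 1.86, and over all arrays left out in turn it ran from 1.86 to 3.06. Under the other processing alternatives it ran from 1.46 to 2.81, and over all these alternatives the limma adjusted p ran from 0.170 to 1. It passed the threshold only under a crossed block of arrays that was added after the data were seen. On control 1 the probe was close to background, with a detection p-value of 0.0377, which makes the control level there uncertain.

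**Figure D4:**
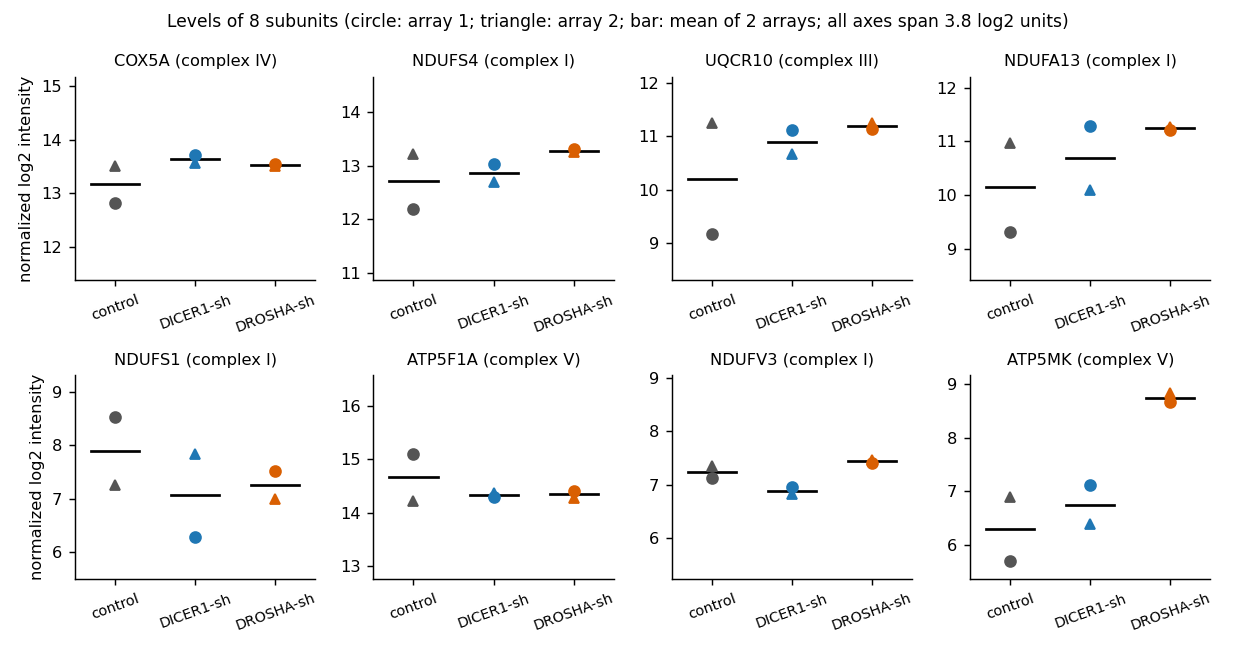
Points are the normalized log2 intensities of 8 subunit genes on the 2 arrays of each group (circle for array 1, triangle for array 2) with a bar at their mean, and all panels cover the same span of log2 units. Control 1 is the lowest array for COX5A, NDUFS4, UQCR10, NDUFA13 and ATP5MK and the highest for NDUFS1 and ATP5F1A, and the DROSHA-sh arrays lie above all others for ATP5MK, at 8.67 and 8.84.

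ATP5MK also carries a miRNA hairpin, MIR1307, within its span and on the same strand, at chr10:103394253-103394401 on the minus strand of GRCh38.p14, 2074 bases from the gene's start. The mature miRNAs of the hairpin are shown because ATP5MK is the subunit gene with the largest difference after knockdown of the enzyme that releases hairpins. Capitals mark the seed, bases 2 to 8, and the arms have different seeds.
hsa-miR-1307-5p: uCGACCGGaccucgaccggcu
hsa-miR-1307-3p: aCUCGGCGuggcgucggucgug

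Of the 85 subunit genes, 3 hold a total of 4 of the 1562 hairpins in the RefSeq table, all on the strand of the gene. NDUFA10, a membrane arm subunit with MIR4786, measured 9.46 and 10.46 in control, 10.51 and 10.19 in DICER1-sh, and 10.49 and 10.42 in DROSHA-sh. On this probe it was low on control 1 only. Its second kept probe was lowest on DICER1-sh 1, at 9.16. That probe gave differences of -0.08 in DICER1-sh and 0.07 in DROSHA-sh. NDUFS8, a core iron-sulfur subunit of the Q module with MIR7113 and MIR4691, had differences of 0.39 in DICER1-sh and 0.20 in DROSHA-sh. So 1 of the 3 genes with a hairpin had a large difference in DROSHA-sh. Levels of the hairpins and of mature miRNAs were not analysed here, and any part of the hairpin in the level of ATP5MK was not tested.

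Upstream regions of the subunit genes were searched because most of them were displaced together on control 1. Nuclear respiratory factor 1 (NRF1), GABP (also called NRF2) and YY1 are factors known to bind promoters of respiratory chain genes. Windows from 250 bases before to 50 after the start were searched on both strands for GCATGCGC (NRF1), CCGGAAGT (GABP) and AAGATGGC (YY1), for 70 of the 85 genes with an entry in the RefSeq table. The NRF1 letters stood in a window of 13 of the 70 genes (18.6%) against 3.05% of all 35116 windows, the GABP letters in 12 (17.1%) against 4.14%, and the YY1 letters in 11 (15.7%) against 2.89%. Any of the 3 stood in 30 of 70 (42.9%) against 9.36% of all windows. A gene may have several windows and was counted if any of them matched. Shares of genes and of windows are thus unlike measures, and counting by gene raises the share of the subunit genes. Such a match is a description of the sequence only.

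Genes with and without a motif did not differ in the direction of their control pair medians. The 12 measured genes with the NRF1 letters had a median control pair difference of -0.99 and the 52 without them -0.97. For the GABP letters the medians were -0.852 and -1.001, and for the YY1 letters -0.923 and -1.0004. Below 0 in the control pair were 10 of 12 genes with the NRF1 letters and 49 of 52 without them. For GABP these counts were 9 of 12 and 50 of 52, and for YY1 11 of 11 and 48 of 53. The counts were not tested. The 250 bases upstream of COX5B, SDHD and ATP5MK (GRCh38.p14, RefSeq) show how the same letters accompany different levels. COX5B (chr2:97645812-97646061, plus strand) and SDHD (chr11:112086623-112086872, plus strand) both hold NRF1 and GABP letters, given in capitals, in SDHD with the NRF1 letters read on both strands in overlap. COX5B, the zinc-binding accessory subunit of complex IV, had a control pair difference of -1.16, and SDHD one of 0.05. ATP5MK (chr10:103396476-103396725, minus strand) holds the GABP letters, which begin at position -160 counted from the start.
COX5B: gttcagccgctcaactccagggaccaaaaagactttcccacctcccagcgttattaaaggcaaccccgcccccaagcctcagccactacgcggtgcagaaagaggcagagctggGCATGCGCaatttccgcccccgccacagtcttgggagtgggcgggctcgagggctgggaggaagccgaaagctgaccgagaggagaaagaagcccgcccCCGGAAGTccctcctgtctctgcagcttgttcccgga
SDHD: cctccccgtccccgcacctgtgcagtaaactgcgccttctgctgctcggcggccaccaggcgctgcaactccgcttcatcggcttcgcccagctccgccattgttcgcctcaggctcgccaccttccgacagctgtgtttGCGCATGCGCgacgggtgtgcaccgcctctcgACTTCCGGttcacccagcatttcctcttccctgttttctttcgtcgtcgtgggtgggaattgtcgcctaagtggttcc
ATP5MK: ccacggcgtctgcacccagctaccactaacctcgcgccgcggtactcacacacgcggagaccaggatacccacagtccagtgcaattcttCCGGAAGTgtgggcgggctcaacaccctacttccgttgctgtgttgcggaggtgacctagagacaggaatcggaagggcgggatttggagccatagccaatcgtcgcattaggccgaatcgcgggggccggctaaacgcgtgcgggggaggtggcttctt

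The subunit genes are short on the genome, and length went with the gap between the control arrays across the whole array. The median length of the 77 genes was 9.24 kb, against 27.8 kb for all 12076 named genes with a length. When these were divided by length into 4 equal classes, the median control pair difference of all genes was -0.44 in the shortest class, then -0.15, 0.20 and 0.34. The subunit genes fell into these classes as 40, 26, 9 and 2, with medians of -1.09, -0.85, -0.40 and -1.01, so that in each class they lay below the median of all genes. Spearman's rho between length and the difference was 0.39 over all genes and 0.37 over the 77, a description across genes measured on the same arrays. Mean level had a rho of -0.01 and 0.13 with the same difference. Of the 7 genes that were higher on control 1, NDUFS1, NDUFA5 and UQCRC2 span 30.3 to 64.7 kb, ATP5F1A spans 24.0 kb, and SDHD, ATP5F1B and ATP5MC3 span 5.45 to 8.92 kb. In the DICER1-sh pair the medians of all genes ran the opposite way over the classes, at 0.31, 0.16, -0.01 and -0.12. Against control, the medians of all genes in the shortest class were 0.19 in DICER1-sh and 0.23 in DROSHA-sh, and in the longest -0.11 and -0.15, beside medians of 0.39 and 0.45 for the subunit genes. This gap bears on every difference from control given here. The part of length in it was not tested, nor was that of RNA quality, for which no measure was analysed here.

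**Figure D5:**
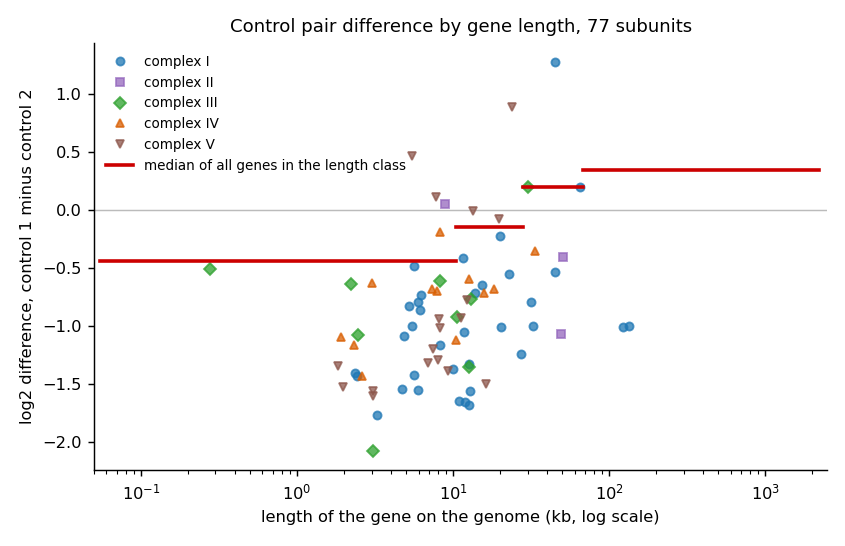
Each point is 1 of 77 subunit genes, placed by the length of the gene on the genome (kb, log scale) and by its log2 difference between control 1 and control 2, with a marker per complex, and red lines give the median of all named genes in each of 4 length classes. Most subunit genes lie in the shorter classes and below the red lines, which run from -0.44 to 0.34.

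Other gene lists put the displacement in context, and none had a gene past the adjusted threshold against control. Assembly factors of the complexes, with 47 measured, had medians of 0.20 in DICER1-sh, 0.27 in DROSHA-sh and -0.65 in the control pair. The 79 genes with names of mitochondrial ribosomal proteins had 0.29, 0.39 and -0.89. This list was taken by name and includes the pseudogene MRPS31P5. The 18 mitochondrial import subunits had 0.11, 0.39 and -0.37, the 74 cytosolic ribosomal proteins 0.13, 0.17 and -0.45, and the 33 proteasome subunits 0.16, 0.22 and -0.28. These lists of protein complex subunits and factors thus had the signs of the respiratory genes in both knockdowns and in the control pair. The 12 citric acid cycle enzymes had medians of 0.03, -0.05 and 0.08 and the 18 glycolytic enzymes -0.05, 0.14 and -0.02. The 14 measured regulators of respiratory chain genes had medians of the other sign, with -0.25, -0.21 and 0.43. NRF1 itself was the 1 of the 15 listed regulators that was not measured. Of the 14, 5 were above the control mean in DICER1-sh and 4 in DROSHA-sh, and 3 were lower on control 1 than on control 2.

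Single genes of these lists differed in which array stood apart. YY1 measured 13.42 and 13.08 in control, 11.57 and 13.13 in DICER1-sh, and 12.82 and 12.72 in DROSHA-sh. It was lowest on DICER1-sh 1, and both DROSHA-sh arrays were also below both control arrays, with a difference of -0.48. PPARGC1A, the coactivator of mitochondrial biogenesis, had a difference of -0.58 in DROSHA-sh with a limma p of 0.120. CYCS, cytochrome c, measured 6.87 and 7.99 in control, 8.49 and 7.87 in DICER1-sh, and 7.52 and 7.87 in DROSHA-sh. TIMM9, a chaperone of the intermembrane space, measured 10.77 and 10.80 in control, 11.14 and 11.03 in DICER1-sh, and 11.34 and 11.41 in DROSHA-sh. Its groups did not overlap, its control arrays were level, and its DROSHA-sh difference of 0.59 had a limma p of 0.0533 and an adjusted p of 0.850. NDUFAF5, an assembly factor of complex I, had a difference of 0.54 in DICER1-sh and COX11, a copper chaperone of complex IV, 0.57 in DROSHA-sh.

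The remaining genes picked by smallest p in each list had these differences. In DROSHA-sh, the citric acid cycle enzymes OGDH and IDH3G were at 0.97 and 0.84, the mitochondrial ribosomal protein MRPL54 at 0.91 and the pseudogene MRPS31P5 at -0.84. In DICER1-sh, the glycolytic enzymes PGAM1 and ALDOA were at -0.51 and -0.47, the import subunit TOMM7 at 0.56, the ribosomal protein RPS26 at 0.67 and the immunoproteasome subunit PSMB9 at 0.88. The ribosomal protein RPL34 and the proteasome subunit PSMB3 were at 0.84 and 0.58 in DROSHA-sh. Of the luminal markers, KRT18 was at -0.96 in DICER1-sh and AGR2 at 0.96 in DROSHA-sh. Their limma p-values of 0.0326 and 0.0202 did not pass the adjustment. KRT18 went against its list, as 5 of the 7 luminal markers were above the control mean in DICER1-sh, with a median of 0.30. In DROSHA-sh 6 of 7 were above it, with a median of 0.37. OGDH, IDH3G, MRPL54, RPL34, RPS26, PSMB9, PSMB3 and TOMM7 were lowest on control 1, as most respiratory genes were. Some marker lists also moved with control 1. The summed intensity of 7 MDA-MB-231 markers was 162300 there against 107900 to 121900 on the other arrays, with CD44 higher on control 1 than on control 2 by 1.77, FOSL1 at -1.58, and 3 of 7 markers lower on control 1. The sum of 7 luminal markers was 10620 on control 1 against 11040 to 14620, and that of 4 leukocyte markers 748.2 against 927.4 to 1197. The part of these lists in the level of the subunit genes was not tested.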

How the data were processed

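Bead-level means of the 6 arrays were used. The first deposited table holds, per the file headers and the values, the mean intensity of each of 47319 probes on a linear scale and each probe's detection p-value. Processed intensities of the same arrays, also deposited, served as an alternative. The submitters' processing notes name GenomeStudio, and its normalization method is not given in the sources used here.

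Intensities were corrected with normexp through the detection p-values, quantile-normalized with an offset of 16 and brought to log2 by neqc (limma 3.58.1, R 4.3.3). Probes with a detection p-value below 0.05 on at least 2 of 6 arrays were kept, 22091 in all. Platform annotation gave 30112 probes 1 symbol and 8 several, and symbols were updated through the RefSeq gene table. Probes with several symbols named no gene. The brightest kept probe stood for a gene, which gave 17790 features, 12083 of them named genes. A gene that passes this filter in part through the group where it is high is not independent of the comparison.

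One limma fit (lmFit, eBayes) covered the 3 groups, with 3 residual and 4.34 prior degrees of freedom, and p-values were adjusted over all features by the Benjamini-Hochberg method. Precision is limited by how few arrays there are. The script was tested on simulated data. Replicate numbers did not pair the arrays, since the correlation of same-numbered deviations was -0.63 for control and DICER1-sh, -0.03 for control and DROSHA-sh, and 0.02 for DICER1-sh and DROSHA-sh. No replicate arrays had equal values, and their raw log2 values correlated at 0.969 to 0.995.

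The members and lists were chosen with earlier results of these data known. Named genes were COX5A and NDUFS4, the 2 highest and 2 lowest per complex in each knockdown, the 3 with the smallest p per comparison, the extremes of the control pair per complex, isoforms, genes with several probes or below background, and the 2 with the smallest p of each other list. COXFA4L3, NDUFC2, NDUFB5 and the hosts of hairpins were named after their values were seen. Promoter and miRNA sequences are from RefSeq (GRCh38.p14). Alternatives covered background correction, scaling, the deposited processed values, the filter, the choice of probe, array weights, a replicate block and leaving out each array.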

Additional observations from a re-analysis of the deposited data

Results flagged for a closer look

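NDUFV3, an accessory subunit of the NADH-binding end of complex I, lay on opposite sides of control in the 2 knockdowns. Its log2 difference from control was -0.34 in DICER1-sh, with both arrays below both control arrays, and 0.20 in DROSHA-sh, with both arrays above them. The difference between the knockdowns was 0.54, with a limma p of 0.0749 and an adjusted p of 1, so it did not pass the test. The second NDUFV3 probe gave -0.24 and 0.04 but did not repeat this arrangement. Each knockdown array lay between its control arrays, at 6.18 and 7.11. The first probe was dim, with raw intensities from 218.9 to 301.8. Knockdowns on opposite sides of both control arrays were seen for 1 of 77 subunit genes (1.30%) and for 301 of 17790 features (1.69%).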

How the results depend on the processing

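Of 270 medians recomputed under alternatives, 250 kept their sign and 20 turned. Of these, 12 turned without control 1, all of them differences of a knockdown from control, and 8 were differences between the knockdowns that turned without a DICER1-sh or DROSHA-sh array. Under the 9 alternatives that kept all arrays, 0 of 162 medians turned. With each array left out in turn, the median of all members ran from -0.13 to 0.80 in DICER1-sh against control, from -0.060 to 0.91 in DROSHA-sh against control and from -0.12 to 0.26 in DROSHA-sh against DICER1-sh. In DICER1-sh against control, it ran from -0.15 to 0.89 for complex I, -0.15 to 0.40 for complex II, -0.26 to 0.68 for complex III, -0.088 to 0.68 for complex IV and -0.16 to 1.00 for complex V. In DROSHA-sh against control, these ranges were -0.060 to 0.99, -0.096 to 0.31, -0.049 to 0.84, -0.089 to 0.60 and -0.041 to 1.05. In DROSHA-sh against DICER1-sh they were -0.11 to 0.26, -0.054 to 0.29, -0.041 to 0.47, -0.20 to 0.05 and -0.08 to 0.35. With the replicate block, the number of members past the threshold stayed at 0 in each comparison, and the medians of all members were 0.39, 0.45 and 0.07, as without it. A crossed block of control and DICER1-sh numbers, chosen after seeing the data, called 1 member, ATP5MK, among 10 features in DROSHA-sh against control and 0 members in the other comparisons, and the cause was not tested. Signal close to background limits NDUFB4 and ATP5MK most, and also NDUFB1 on control 1 and NDUFS1 on DICER1-sh 1.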
